A study of Mus musculus with 4 samples.

Results

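Imprinted genes that act on growth were followed through single-cell RNA profiles of the young mouse thyroid, namely H19, Igf2, Dlk1, Meg3, Cdkn1c, Ndn, Grb10, Peg3, Plagl1 and Mest. They are 10 of the 32285 gene rows of the matrices, found by symbol, and each symbol matched 1 row. The set was chosen from levels measured in these same libraries, so those levels are given as a description and carry no test. Thyroid tissue of C57BL/6 mice at postnatal days 5, 10, 20 and 30 had been digested to single cells, cleared of dead cells, and profiled with a droplet 3′ kit, with 10 mice pooled into 1 library at each age and no other genotype or treatment. A unique molecular identifier (UMI) marks 1 captured RNA molecule, and after filtering the libraries labelled day 5, 10, 20 and 30 kept 11210, 3929, 5076 and 2899 cells.

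With 1 library per age, nothing here measures the spread between animals, and no p-value is given. A level is given in CPM, counts per 1000000 UMIs of a cell class, its bracket or range is an exact 95% Poisson interval, and a ratio between libraries is the log2 of 2 such levels with 0.5 UMI added to each count. These intervals cover counting error only. A 3′ UMI count does not grow with transcript length, so UMIs of different genes are set side by side without a length correction. Fewer cells of a type and less RNA per cell cannot be told apart in a library total, and levels are therefore given within a class.

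The ages on the labels were in doubt, and each library is named by its label. The study's own cell table numbers its cells 1 to 4, and all 6555 cells numbered 1 were found in the library labelled day 30, all 7843 numbered 2 in day 10, all 7808 numbered 3 in day 20 and all 15297 numbered 4 in day 5. The study's methods state the most cells for day 30 and the fewest for day 10, whereas the library labelled day 30 held the fewest listed cells and that labelled day 5 the most. No library was relabelled. For the libraries labelled day 10, 20 and 30, 99.0% to 99.7% of cell barcodes also occurred in one another's matrices, with medians of 8 to 11 UMIs there. The library labelled day 5, the reference in most ratios below, stood apart. Of its cell barcodes 45.6% to 59.6% occurred in the other matrices, with a median of 1 UMI there. The part of this in the ratios was not tested. Over all pairs of the 4 libraries, 12 to 30 barcodes were listed as cells in both.

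In mammals an imprinted gene is expressed mainly from the copy inherited from 1 parent, and the marks that decide which copy is silent are set in the germ line. Many imprinted genes are abundant in the fetus and the newborn and decline as organ growth slows after birth. Paternally expressed genes such as Igf2, Dlk1, Peg3, Plagl1 and Mest tend to promote growth or keep precursors undifferentiated, while maternally expressed genes such as H19, Cdkn1c and Grb10 tend to restrain it. Several share a domain and a control region, as H19 and Igf2 do on chromosome 7 and Dlk1 and Meg3 on chromosome 12.

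Those 2 pairs are close neighbours in the mouse genome (GRCm38, GENCODE vM21). H19 lies on the minus strand at chr7:142575529-142578143, 72622 bases from Igf2 at chr7:142650766-142666816, and Cdkn1c follows at chr7:143458339-143461050, 791522 bases from Igf2. Dlk1 is at chr12:109452823-109463336 on the plus strand, with 77664 bases between it and Meg3 at chr12:109541001-109571726. Peg3 is on chr7 at 6703892-6730431, Ndn on chr7 at 62346569-62350262, Mest on chr6 at 30723547-30748465, Plagl1 on chr10 at 13060504-13131694 and Grb10 on chr11 at 11930508-12038683.

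H19 and Igf2, the members with the largest fold differences below, each host a microRNA, which lies at chr7:142577078-142577133 inside H19 (miR-675) and at chr7:142654932-142654989 inside Igf2 (miR-483). Their mature products are shown for that reason, taken from RefSeq (GRCm38.p6) with the seed (bases 2 to 8) in capitals; the 3′ UMIs count the host transcripts and do not measure the microRNAs.
mmu-miR-675-5p: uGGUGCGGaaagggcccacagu
mmu-miR-675-3p: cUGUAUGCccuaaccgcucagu
mmu-miR-483-5p: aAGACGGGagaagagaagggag
mmu-miR-483-3p: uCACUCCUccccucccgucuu

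Plagl1 encodes a zinc-finger factor that binds the palindrome GGGGCCCC, which reads alike on both strands. RefSeq promoters, 250 bases before to 50 bases after a start site, were held for 8 of the 10 genes and 15 start sites. The motif stood in 1 of these 15 sequences, that of Peg3, against 354 of all 32851 promoters (1.08%). The Peg3 promoter (GRCm38.p6, minus strand, chr7:6730370-6730669) is shown with the motif in capitals, which begins 201 bases upstream of the start site; a match of letters is a description and not a measured site.
Peg3: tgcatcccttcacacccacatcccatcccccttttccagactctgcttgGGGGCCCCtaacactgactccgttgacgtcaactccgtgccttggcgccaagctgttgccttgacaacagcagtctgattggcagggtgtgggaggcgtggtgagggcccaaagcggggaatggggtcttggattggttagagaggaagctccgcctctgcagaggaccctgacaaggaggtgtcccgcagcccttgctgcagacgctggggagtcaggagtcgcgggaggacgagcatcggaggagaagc

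The summed level of the 10 genes in fibroblast-like cells differed 5.42-fold between libraries. By label day 5, 10, 20 and 30 the class numbered 1512, 587, 299 and 163 cells, whose median depths were 4144, 7193, 7099 and 7579 UMIs. Its collagen and decorin markers (Dcn, Col1a1, Col1a2, Col3a1, Lum and Pdgfra) summed to 33137, 59227, 44926 and 63094 CPM. The 10 genes together took 0.146%, 0.362%, 0.216% and 0.791% of the UMIs of these cells, against 0.209%, 0.218%, 0.148% and 0.166% in C cell-like cells and 0.0517%, 0.153%, 0.134% and 0.210% in stromal-like cells. The sums were 0.0195%, 0.0344%, 0.0255% and 0.0481% in endothelial-like cells and 0.0106%, 0.0287%, 0.0152% and 0.0562% in follicular-like cells. In fibroblast-like, stromal-like, endothelial-like and follicular-like cells the library labelled day 30 stood highest, that labelled day 10 next, and those labelled day 20 and day 5 lowest.

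Igf2, the fetal insulin-like growth factor, had 19.5, 179.6, 24.7 and 716.4 CPM in fibroblast-like cells (libraries labelled day 5, 10, 20 and 30, an order kept throughout). Its level in the library labelled day 30 was 36.6-fold that in the library labelled day 5 (log2 5.20, interval 4.93 to 5.48), and the libraries labelled day 5 and day 20 did not differ beyond counting error (log2 0.35, interval -0.16 to 0.82). Dlk1, a membrane ligand of the Notch type that holds precursors back from differentiating, had 39.0, 104.2, 39.0 and 440.6 CPM. The values of the libraries labelled day 5 and day 20 were alike (log2 0.01, interval -0.38 to 0.37), and that labelled day 30 was 11.3-fold the former.

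H19, the maternally expressed non-coding RNA beside Igf2, ran from 64.0 CPM in the library labelled day 5 to 523.2 in day 10, 70.5 in day 20 and 1975 in day 30. That is a 30.8-fold difference between the libraries labelled day 30 and day 5 (log2 4.95, interval 4.80 to 5.10), and H19 was the 66th most abundant of 14109 detected genes in the former against the 2403rd of 16910 in the latter. Meg3, the maternally expressed non-coding RNA of the Dlk1 domain, was abundant in every library, with 534.4, 1413, 1118 and 2188 CPM. It was 2.09-fold higher in the library labelled day 20 than in that labelled day 5, and was the single one of the 10 genes past 2-fold between those libraries.

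Cdkn1c and Grb10 are inhibitors of growth. Cdkn1c, which encodes the cyclin-dependent kinase inhibitor p57, had 180.7, 242.9, 234.7 and 432.2 CPM, a 2.39-fold difference between the libraries labelled day 30 and day 5. Grb10, an adaptor that dampens insulin and insulin-like growth factor receptors, had 90.5, 145.4, 121.8 and 190.7 CPM, a 2.11-fold difference. Between the libraries labelled day 20 and day 5 they differed 1.30-fold and 1.35-fold.

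Among the remaining members, Peg3, a large zinc-finger protein, had 145.2, 579.4, 278.6 and 1115 CPM and was 7.68-fold higher in the library labelled day 30 than in that labelled day 5. Plagl1, the zinc-finger factor named above, stayed lowest of the 10, with 18.4, 31.5, 12.8 and 74.0 CPM from 120, 126, 26 and 80 UMIs. Mest, an enzyme of the alpha/beta hydrolase fold, had 77.3, 105.2, 41.9 and 327.7 CPM, and it was lower in the library labelled day 20 than in that labelled day 5 (log2 -0.88, interval -1.23 to -0.55). Ndn encodes necdin, a growth suppressor of the MAGE family, and had 289.5, 295.1, 215.0 and 446.1 CPM. Its lowest level was also that of the library labelled day 20, and its highest was 2.07-fold the lowest, the smallest range of the set under the limit of 10000 UMIs per cell (without it Grb10, from 89.3 to 186.4 CPM, had a smaller range than Ndn, from 201.9 to 459.9).

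**Figure D1:**
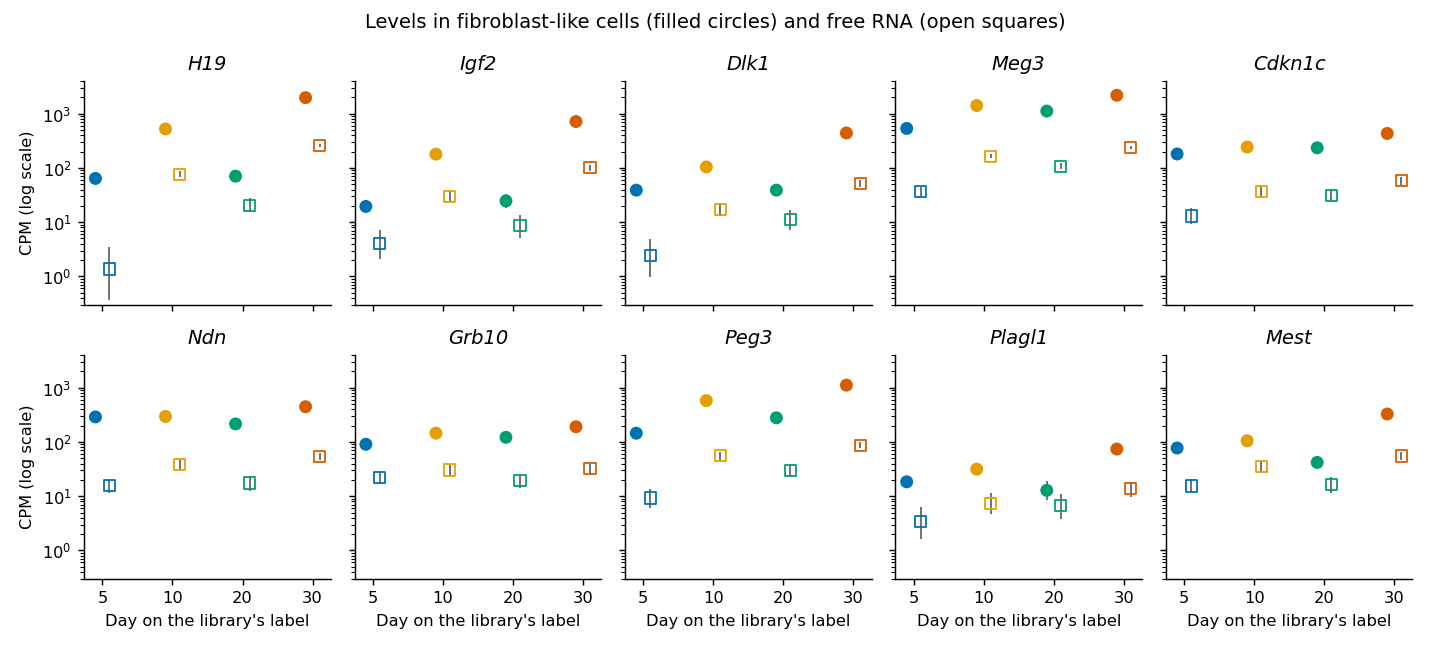
Level of each gene in CPM (log axis) against the day on the library's label, in fibroblast-like cells (filled circles) and in droplets of 10 to 100 UMIs taken as free RNA (open squares), with exact 95% Poisson intervals as bars; colours mark the 4 libraries. In each panel the highest circle is that of the library labelled day 30, H19 spans 64.0 to 1975 CPM and Ndn 215.0 to 446.1 CPM.

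Set against all genes with a mean of at least 10 CPM, 9 of the 10 members were, in fibroblast-like cells, at least 2-fold higher with the day 30 label than with the day 5 label, where 6.11% of 8657 genes were, and none was at least 2-fold lower, where 3.93% were. Ndn was the member short of 2-fold. Grb10 fell short of it when ratios were centred on the median of all genes (log2 0.94), and Cdkn1c when the smaller of 2 fibroblast-like clusters was left out (log2 0.86). For the library labelled day 10 over day 5 the count was 5 of 10 (H19, Igf2, Dlk1, Meg3 and Peg3) beside 2.98% of genes. For day 20 over day 5 it was 1 of 10, Meg3, beside 3.82%, and 0 of 10 were 2-fold lower beside 3.41%. The library labelled day 30 exceeded that labelled day 20 at least 2-fold for 7 of 10 members, beside 5.12% of genes. The median log2 ratio of the members was 2.06, 1.09, 0.25 and 2.26 in these 4 comparisons, and that of all genes 0.14, 0.08, 0.06 and 0.11. The first 3 comparisons share the library labelled day 5, and the members were picked for these levels, so nothing is read from the counts.

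**Figure D2:**
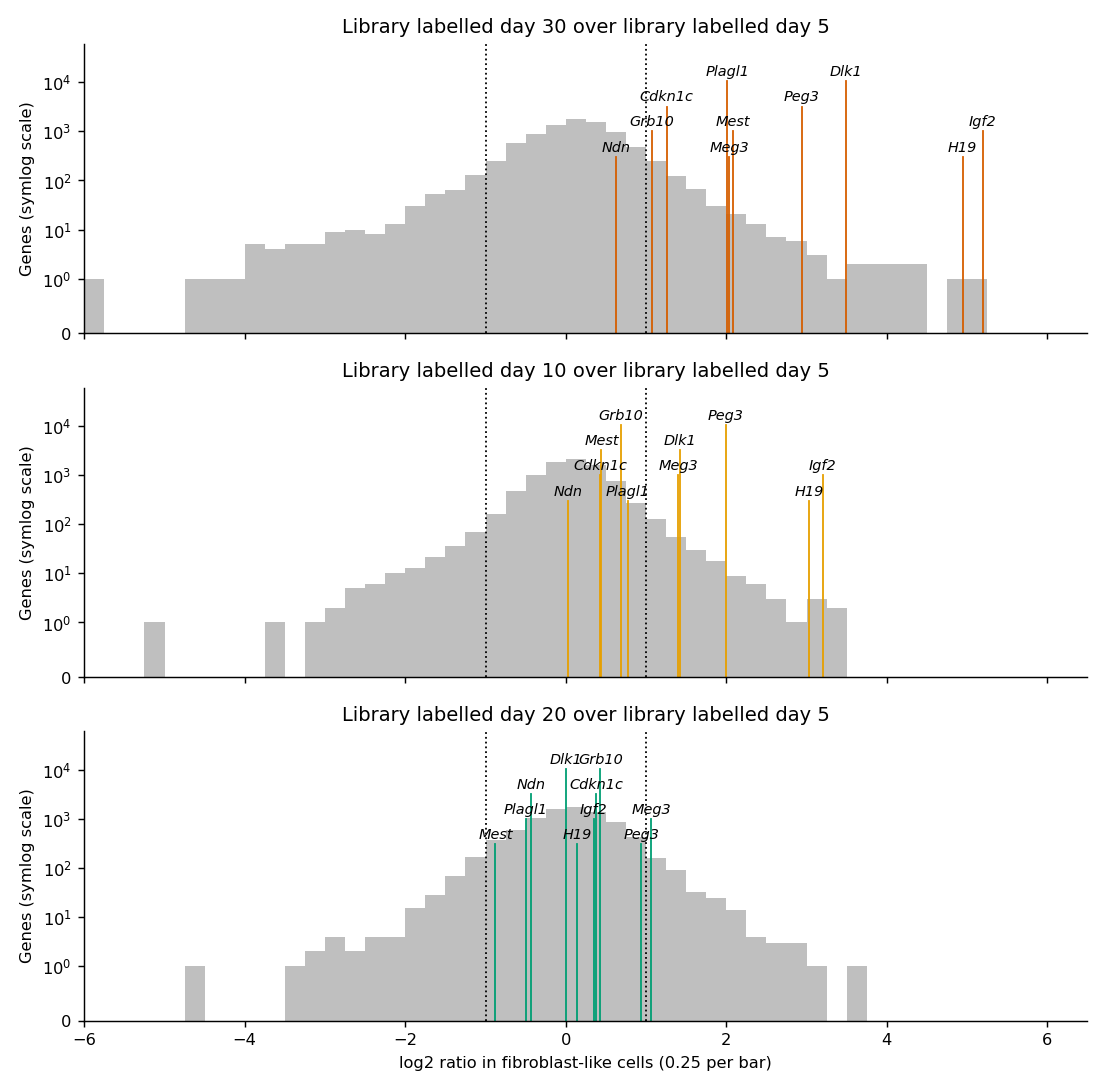
Number of genes (symmetric log axis) by log2 ratio in fibroblast-like cells, in bars of 0.25, for the libraries labelled day 30, 10 and 20 over that labelled day 5, with the 10 members as coloured lines whose height has no meaning and dotted lines at 2-fold. In the top panel H19 and Igf2 sit at 4.95 and 5.20, and in the bottom panel Meg3 alone lies beyond the right dotted line.

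The limit of 10000 UMIs per cell, taken from the study's methods, removed most of the RNA of this class in the library labelled day 30. Without it, 580 of 755 fibroblast-like cells of that library were over the limit, against 26 of 1575, 455 of 1058 and 89 of 391 in those labelled day 5, 10 and 20. The levels then came to 60.7, 813.8, 122.9 and 2884 CPM for H19 and 18.4, 218.4, 37.6 and 930.5 CPM for Igf2. Both genes were then 2-fold higher in the library labelled day 20 than in that labelled day 5 (log2 1.02 and 1.04), so their likeness between those libraries depended on the limit. Cdkn1c ran from 178.1 CPM in the library labelled day 5 to 680.5 CPM in that labelled day 30 without the limit.

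A single cell decided the H19 and Igf2 levels of the library labelled day 20. There, 1 of 299 fibroblast-like cells held 79 of 143 H19 UMIs (55.2%) and 19 of 50 Igf2 UMIs, and without it H19 stood at 31.7 CPM and Igf2 at 15.3 CPM. That cell had 7864 UMIs, 76 of them from Col1a1, and its barcode was listed as a cell in no other library. The highest cells of the libraries labelled day 5, 10 and 30 held 36, 138 and 151 H19 UMIs, and without them the levels were 58.5, 489.4 and 1848 CPM.

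Thinning each cell to 1000 UMIs gave shares of cells that could be compared across depths. At least 1 H19 UMI was then found in 2.61%, 15.8%, 2.70% and 45.5% of fibroblast-like cells, with exact binomial intervals of 1.85% to 3.56%, 12.9% to 19.01%, 1.17% to 5.26% and 37.4% to 53.7%. Before thinning the shares were 5.42%, 29.6%, 8.03% and 62.6%. T-like cells had 0%, 0%, 0.116% and 0.802% after thinning, where 0 of 598 and 0 of 188 cells allow up to 0.502% and 1.60%. The make-up of that class differed between libraries, as given below. In the library labelled day 20, its cluster 03 held 26 H19 UMIs (6.05 CPM) and its cluster 04 none (upper bound 1.46 CPM). Meg3 was found in 37.3%, 66.6%, 59.1% and 77.9% of thinned fibroblast-like cells, Peg3 in 10.5%, 38.1%, 20.9% and 59.1%, and Igf2 in 1.65%, 11.6%, 2.70% and 33.8%. For H19, Igf2 and Peg3 the library labelled day 30 therefore had the highest share of cells with the transcript as well as the highest level.

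The proportion of H19 to Igf2 in fibroblast-like cells spanned a narrow range while both genes differed over 30-fold between libraries. There were 3.28, 2.91, 2.86 and 2.76 H19 UMIs for each Igf2 UMI in the libraries labelled day 5, 10, 20 and 30, with overlapping intervals (2.69 to 4.04, 2.67 to 3.17, 2.06 to 4.03 and 2.54 to 3.00). Without the upper limit of UMIs the proportions were 3.31, 3.73, 3.27 and 3.10, and the intervals of the libraries labelled day 10 (3.56 to 3.91) and day 30 (3.03 to 3.17) no longer overlapped. Without the cell with the most H19 UMIs it was 2.06 (1.32 to 3.28) in the library labelled day 20. For Meg3 and Dlk1, the neighbours on chromosome 12, there were 13.7, 13.6, 28.7 and 4.97 Meg3 UMIs for each Dlk1 UMI. Without the upper limit of UMIs, Meg3 had 3640, 13819, 3831 and 19371 UMIs and Dlk1 had 269, 1407, 142 and 6282. This proportion thus also depended on the limit, and the likeness of the libraries labelled day 5 and 10 was not kept. In endothelial-like cells of the library labelled day 5, where Igf2 stood at 3.38 times the level of free RNA (described below) and H19 at 0.420 of it, there were 0.0414 H19 UMIs for each Igf2 UMI (0.0164 to 0.0872).

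The same pair was also found together in single cells. With the day 10 label, 29 thinned fibroblast-like cells held both H19 and Igf2, where 10.6 would if the 2 were independent (odds ratio 5.51), and in that labelled day 30 it was 34 against 23.6 (3.46). H19 and Dlk1 met in 20 cells against 5.84 in the library labelled day 10 (7.77) and in 20 against 15 in that labelled day 30 (2.18). H19 and Cdkn1c met in 28 against 18.3 (2.01) and in 30 against 19.1 (4.50). H19 and Peg3 met in 47 against 34.7 (1.93) and in 42 against 41.4 (1.07), and H19 and Ndn in 22 against 20.7 and in 19 against 24.1. In the libraries labelled day 5 and day 20, H19 and Igf2 met in 4 cells against 0.626 and in 2 against 0.216. H19 and Dlk1 met there in 3 against 0.809 and in 0 against 0.216, and H19 and Peg3 in 3 against 3.99 and in 3 against 1.68. For H19 and Cdkn1c it was 10 against 4.83 and 3 against 1.49, and for H19 and Ndn 12 against 8.80 and 1 against 1.27. Joint detection was not particular to H19 or to neighbouring genes. Peg3 and Mest, on different chromosomes, had odds ratios of 5.08, 1.22, 8.25 and 1.08 in the libraries labelled day 5, 10, 20 and 30. The neighbours Dlk1 and Meg3 had 2.08, 2.25, 2.11 and 1.35. All these values come from counts over cells of 1 library, which are not replicates, and are given without a test. They pool the 2 fibroblast-like clusters described below. H19 and Igf2 were both higher in the smaller cluster of the libraries labelled day 10 and 30, and the part of this in the joint counts was not tested.

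The fibroblast-like class was made of 2 clusters, formed without the 10 genes, and the members divided between them. The larger (cluster 01, 2332 cells, led by Dcn and Ccl11) and the smaller (cluster 24, 229 cells, led by Pi16, Dpt and Pcolce2, genes known from adventitial fibroblasts) were present in all libraries, the smaller with 130, 55, 23 and 21 cells. H19 in the smaller cluster came to 111.5, 1426, 73.6 and 6631 CPM, against 58.4, 420.8, 70.3 and 1368 CPM in the larger. So H19 was 4.85-fold higher in the smaller cluster of the library labelled day 30 (interval 4.44 to 5.29) and 3.39-fold in that labelled day 10, and 1.05-fold in that labelled day 20 (0.528 to 1.89). The last value rested on the cell with 79 H19 UMIs, which lies in the larger cluster, and without the highest cell of each library the ratios were 2.14, 2.62, 2.63 and 4.21. Igf2 was higher in the smaller cluster of the libraries labelled day 30 and day 10, at 3.28-fold and 2.73-fold, but stood at 0.881-fold (0.442 to 1.60) in that labelled day 5 and 0.730-fold (0.145 to 2.27) in that labelled day 20, and its ratio in the library labelled day 10 was 1.76 without the highest cell. Cdkn1c was 4.08-fold and 2.32-fold higher there in the same libraries, from 1301 and 495.9 CPM, and 1.24-fold and 0.935-fold in those labelled day 5 and day 20.

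Peg3 and Mest lay on the other side. Peg3 was lower in the smaller cluster of every library, at 0.373, 0.507, 0.574 and 0.381 of the larger cluster's level, with intervals below 1 throughout. Mest stood at 0.188, 0.800, 0.136 and 0.558 of it, with the interval including 1 in the library labelled day 10. Dlk1 gave 1 UMI in the smaller cluster of the library labelled day 5 (1.45 against 43.4 CPM) and none in that labelled day 20, yet 345.2 against 453.0 CPM in that labelled day 30 and 127.7 against 101.5 in that labelled day 10, where leaving out the highest cell turned the order round (55.3 against 101.5). Grb10, Plagl1 and Meg3 were, like H19, higher in the smaller cluster of all 4 libraries. Grb10 stood at 1.58, 1.92, 2.01 and 1.63 times the larger cluster's level. Plagl1 stood at 1.59, 2.29, 2.08 and 2.56 times it, with the interval including 1 in the libraries labelled day 5 and 20, and Meg3 at 1.28, 1.21, 1.05 and 1.62 times it, with the interval including 1 in that labelled day 20.

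**Figure D3:**
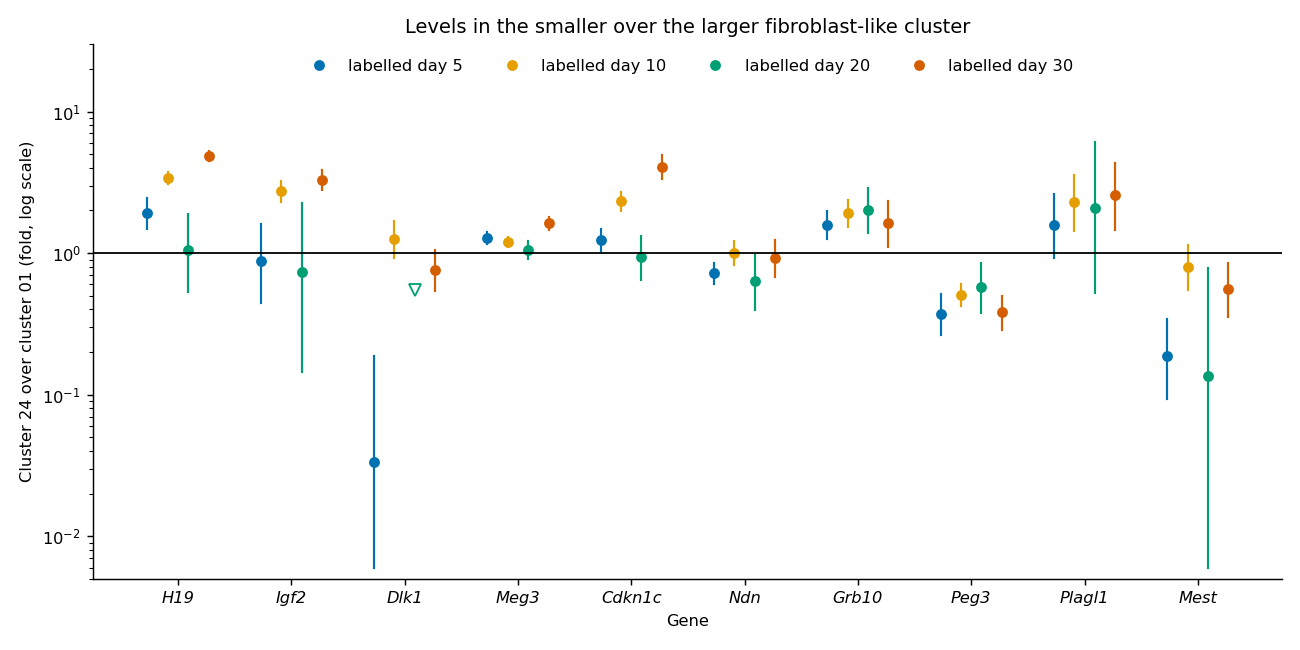
Ratio of the level in the smaller fibroblast-like cluster (24) to that in the larger (01) on a log axis, for each gene and library, with exact 95% counting intervals; bars that run below the axis are cut, and the open triangle marks the upper bound for Dlk1 in the library labelled day 20, which had no UMI in the smaller cluster. H19, Igf2 and Cdkn1c lie above 1 in the libraries labelled day 10 and 30, and Peg3 lies below 1 in all 4.

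Some levels outside fibroblast-like cells could not be separated from free RNA, which was measured in droplets of 10 to 100 UMIs. H19 made up 1.37, 76.8, 20.7 and 256.2 CPM of free RNA in the libraries labelled day 5, 10, 20 and 30, and Meg3 36.6, 164.7, 108.2 and 238.4 CPM. All 10 members had a counting interval above free RNA in fibroblast-like cells of all 4 libraries, beside 65.9%, 75.2%, 51% and 55.1% of genes with a mean of at least 10 CPM. In the library labelled day 30 that was so for 5 of 7 members with that mean in stromal-like cells (55.3% of genes), 3 of 7 in endothelial-like cells (69.3%) and 1 of 6 in follicular-like cells (50.2%). Fibroblast-like H19 in the library labelled day 20 included the cell with 79 UMIs. Without that cell it stood at 31.7 CPM, and at 28.0 CPM in the larger cluster, against 20.7 CPM in free RNA. Among the marker lists of other classes, 4 had the largest sums within fibroblast-like cells. Erythroid markers summed to 787.3, 1011, 211.6 and 1079 CPM, highest in the libraries labelled day 30 and 10 as the members were (though lowest in day 20), and stromal markers to 227.1, 425.7, 257.9 and 709.0 CPM, in the order of libraries that H19 had. Follicular markers came to 800.9, 336.8, 444.3 and 226.8 CPM and monocyte markers to 555.9, 274.6, 567.1 and 223.1 CPM. Their part in the members' levels was not tested.

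Stromal-like cells, the smooth muscle cells and pericytes of the vessel wall (336, 128, 24 and 117 cells), carried the chromosome 12 pair and Peg3 but hardly any H19. Meg3 had 181.1, 1045, 845.4 and 1324 CPM there, Dlk1 23.5, 88.1, 50.3 and 197.5 CPM, and Peg3 42.4, 135.0, 130.8 and 264.5 CPM. Meg3 and Peg3 stood lowest in the library labelled day 5. The Dlk1 level of the library labelled day 20 came from 5 UMIs, 4 of them in 1 cell, without which it was 10.8 CPM. H19 gave 11, 1, 0 and 9 UMIs, and its 16.8 CPM in the library labelled day 30 was below that of free RNA. Igf2 gave 45.5, 13.7, 50.3 and 31.7 CPM, which in the libraries labelled day 10 and 30 was below free RNA, at 0.455 and 0.315 of it, so no order between the libraries was read from it. Of 7 members with a mean of at least 10 CPM, 3 were 2-fold higher in the library labelled day 30 than in that labelled day 5, beside 17.4% of genes, and 3 in that labelled day 10 over day 5, beside 12% of genes. In these comparisons 0 members were 2-fold lower, beside 8.59% of genes, and 1, Igf2, beside 6.80%. Fibroblast markers in these cells summed to 1002, 3289, 724.6 and 2736 CPM, highest in the libraries labelled day 10 and 30 as Meg3 and Dlk1 were. Endothelial markers summed to 2439, 133.1, 382.4 and 124.8 CPM and C cell markers to 763.7, 150.7, 20.1 and 72.6 CPM, highest in the library labelled day 5, and T markers came to 1812 CPM in that labelled day 20. Erythroid and follicular markers summed to 985.7, 1657, 171.1 and 1127 CPM and to 1240, 978.4, 463.0 and 348.3 CPM, and the part of these lists was not tested.

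**Figure D4:**
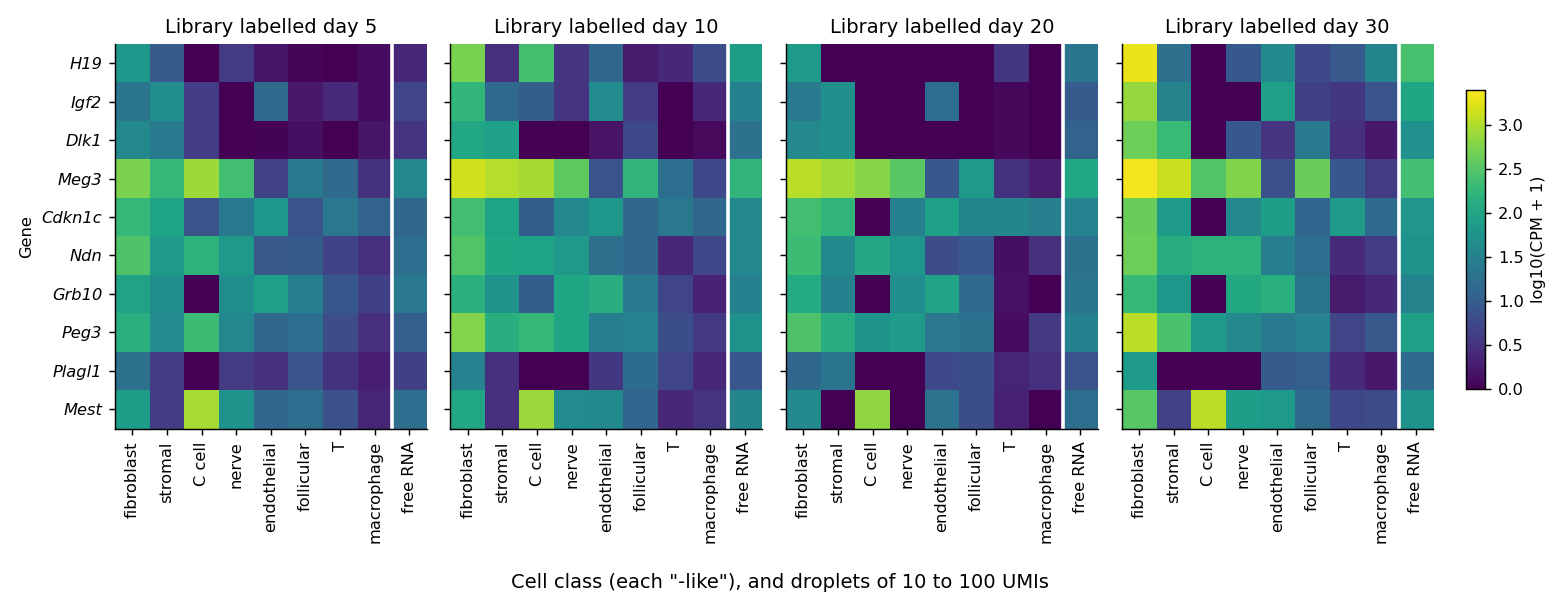
Level of each gene as log10(CPM + 1), by colour, in 8 cell classes and in free RNA (right of the white line), with 1 panel per library. Meg3 is bright in fibroblast, stromal, C cell and nerve columns of every panel, Mest in the C cell column, and H19 in the fibroblast column of the libraries labelled day 10 and 30.

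Endothelial-like cells (4151, 1001, 405 and 416 cells) held Grb10, Cdkn1c and Igf2. Grb10 had 81.8, 131.9, 96.0 and 143.5 CPM, from 3.68-fold to 4.97-fold the free RNA level. Cdkn1c had 60.3, 61.8, 86.7 and 76.6 CPM, with 1.27-fold between the libraries labelled day 30 and day 5. Igf2 had 13.9, 42.1, 15.2 and 83.1 CPM, and in the library labelled day 30 it stood below free RNA, at 0.827 of that level. Among 7 members with a mean of at least 10 CPM, 4 (H19, Igf2, Ndn and Mest) were 2-fold higher in the library labelled day 30 than in that labelled day 5, beside 3.83% of genes, and 0 were lower, beside 3.02%. For day 10 over day 5 it was 5 of 7 (H19, Igf2, Ndn, Peg3 and Mest), beside 3.28%. H19 and Ndn (7.80, 17.1, 5.29 and 27.9 CPM) reached that mean through the libraries where they were high, so nothing is read from these counts. H19 there came to 0.575, 13.3, 0 and 41.3 CPM, which was at or below 0.420 of free RNA in each library.

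Within this class, Igf2 was highest in the same cluster of every library, while Cdkn1c was highest in another cluster of the libraries labelled day 5 and 20. Cluster 22, led by the arterial genes Gkn3, Sema3g and Gja4 (203, 31, 31 and 23 cells), held 169.3, 401.3, 138.4 and 300.9 CPM of Igf2. The 2 large capillary clusters 00 and 02, with Plvap and Kdr among their leading genes, held 3.13 and 3.92 CPM in the library labelled day 5 and 60.1 and 67.5 CPM in that labelled day 30. The arterial cluster was above free RNA for Igf2 in all 4 libraries, where the levels of the capillary clusters were below it in each, with counting error left aside. Cluster 15, led by Lrg1, Fabp4 and Vwf (317, 97, 34 and 38 cells), held 40.8, 97.8, 27.5 and 108.2 CPM of Igf2, 210.7, 122.3, 199.3 and 96.2 CPM of Cdkn1c, and 25.4, 178.6, 27.5 and 216.4 CPM of Mest. In that cluster the libraries high in Mest, labelled day 10 and 30, were the ones low in Cdkn1c. The values of the libraries labelled day 20 and 30 rest on few cells, and the opposite orders were not tested.

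**Figure D5:**
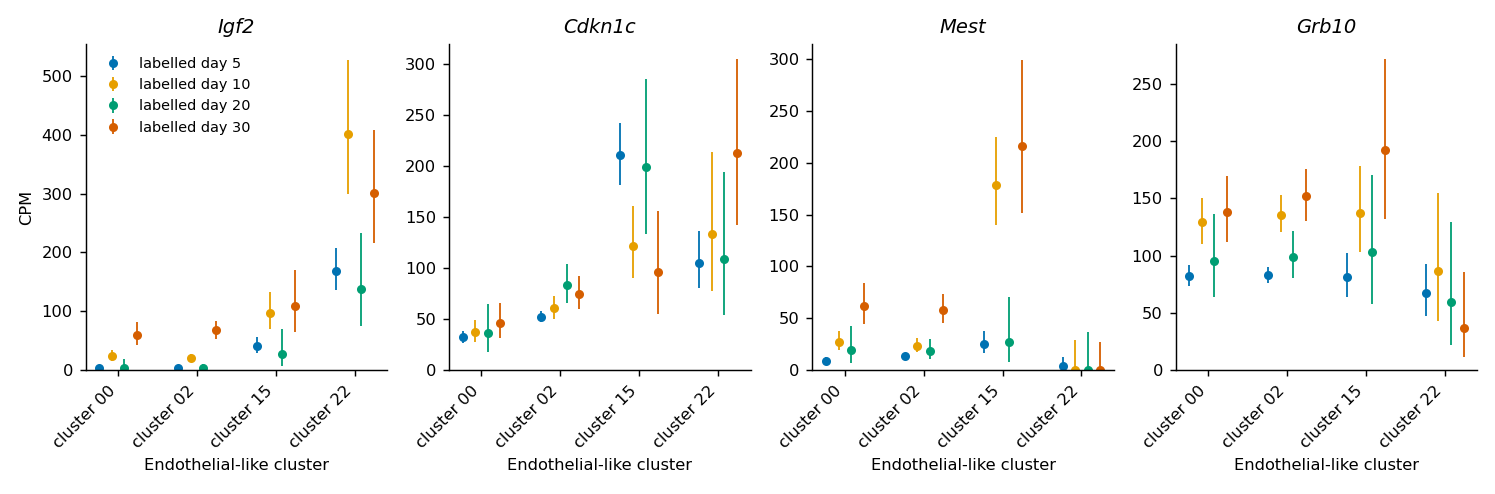
Level in CPM of Igf2, Cdkn1c, Mest and Grb10 in the 4 endothelial-like clusters, by library (colours), with exact 95% Poisson intervals. Igf2 is highest in cluster 22 in every library (138.4 to 401.3 CPM), and Mest in cluster 15 of the libraries labelled day 10 and 30.

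C cell-like cells, the calcitonin-producing cells of the thyroid (75, 53, 29 and 55 cells), had the highest Mest of any class. The levels were 914.5, 767.7, 675.1 and 1131 CPM from 289, 84, 48 and 143 UMIs, between 20.5 and 59.3 times the free RNA level, and they differed by less than 2-fold across libraries where fibroblast-like Mest differed 7.78-fold between those labelled day 30 and day 20. Ndn had 155.0, 91.4, 112.5 and 158.1 CPM there. Meg3 had 787.9, 868.3, 632.9 and 300.4 CPM, but 44 of 45 UMIs came from 1 cell in the library labelled day 20 and 38 of 38 from 2 cells in that labelled day 30. Without the highest cell of each library it was 744.7, 622.0, 16.3 and 75.5 CPM. H19 was at 0 UMIs in 3 libraries, and 27 UMIs in 2 of 53 cells gave 246.8 CPM in that labelled day 10.

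Follicular-like cells, the hormone-producing epithelium (1904, 421, 170 and 298 cells), were set against free RNA member by member. Counting intervals lay above it for Grb10 (28.6 CPM against 22.3 in free RNA), Peg3 (15.8 against 9.25 CPM) and Plagl1 (6.85 against 3.42 CPM) in the library labelled day 5. They did so for Plagl1 (14.9 against 7.44 CPM) in that labelled day 10, for no member in that labelled day 20 and for Meg3 in that labelled day 30. Plagl1 had a mean under 10 CPM in this class. The share of all genes above free RNA was found only for the library labelled day 30 (50.2%), so nothing is read from the number of members. The limit of 10000 UMIs removed 261 of 436 cells of this class in the library labelled day 20, and without it Meg3 stood at 208.4 CPM (day 10, against 164.7 in free RNA) and 115.7 CPM (day 20, against 108.2), Grb10 at 34.9 CPM (day 10, against 30.5) and 42.8 CPM (day 20, against 19.3), and Plagl1 at 15.9 CPM in that labelled day 20, against 6.73. Meg3 had 23.1, 171.4, 67.6 and 429.4 CPM there, which was 0.631, 1.04, 0.625 and 1.80 times free RNA. In the library labelled day 30 it was found in 20.9% of thinned cells (interval 15.4% to 27.3%), against 0.515% of endothelial-like cells of the same library, and cluster 11 held 699.2 CPM where cluster 09 held 147.9. Of 6 members tested, 2 (Meg3 and Peg3) were 2-fold higher in the library labelled day 30 than in that labelled day 5, beside 4.21% of genes. Peg3, at 31.2 CPM, was then 0.357 of free RNA. Fibroblast markers summed to 36.2, 121.4, 53.0 and 155.8 CPM in these cells, in the same order as Meg3, and T markers to 1093 CPM in the library labelled day 20; their part was not tested.

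Nerve-like cells, which carry Schwann cell markers (168, 92, 24 and 19 cells), held Meg3 at 235.4, 363.9, 333.3 and 573.0 CPM, between 2.21 and 6.42 times free RNA. Ndn had 66.0, 66.2, 60.6 and 154.9 CPM and Grb10 45.9, 101.6, 45.5 and 116.2 CPM there, the latter from 16, 43, 3 and 15 UMIs. With so few UMIs in the libraries labelled day 20 and 30, no order between the libraries was read from them.

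Among immune classes only Cdkn1c was above 20 CPM in all 4 libraries. In T-like cells (645, 193, 3477 and 1129 cells) it had 21.1, 22.0, 35.4 and 75.5 CPM. A single cell gave 29 of 39 UMIs in the library labelled day 5, which left 5.43 CPM without it. Cluster 18, led by Trbc1 and Dntt and by histone genes, held 111.4 CPM in the library labelled day 30 and 35.8 CPM in that labelled day 20, from 187 and 50 UMIs. Cluster 04 held 62.8 and 65.4 CPM in these libraries, from 32 and 165 UMIs, so that it exceeded cluster 18 in the library labelled day 20. T-like Cdkn1c was 1.31 and 1.14 times free RNA in those libraries. The make-up of the T-like class differed between libraries, so its values are not those of 1 kind of cell. Clusters 03 and 04, with Rag1 among their leading genes, held 86, 21, 1612 and 542 cells and 71, 4, 1219 and 276 cells. Cluster 18 held 22, 5, 196 and 242 cells, and cluster 16, led by Trdc, held 340, 61, 54 and 21.

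Other imprinted genes were read from 2 lists. These and the gene lists below were chosen with earlier results of these data known, so nothing is read from their counts. Of 11 further maternally expressed genes, 5 had a mean of at least 10 CPM in fibroblast-like cells and 3 of these were 2-fold higher in the library labelled day 30 than in that labelled day 5, beside 6.11% of all genes. They were Zim1, a neighbour of Peg3, with 14.9, 100.9, 31.6 and 227.7 CPM (15.3-fold), and the non-coding RNAs Mirg (4.17-fold) and Rian (2.09-fold) of the Meg3 domain. Of 19 further paternally expressed genes, 6 were measured at that level and 1, the amino acid transporter Slc38a4, was past 2-fold (2.90-fold), while Sgce and Kcnq1ot1 had 102.8 and 103.3 CPM in the library labelled day 5 and 119.4 and 123.1 in that labelled day 30. The list medians were 1.06 and 0.24 on the log2 scale, beside 0.14 over all genes, and none of either list was 2-fold lower.

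The insulin-like growth factor axis was counted in the same way. Of its 15 genes, 12 were measured in fibroblast-like cells, 1 was 2-fold higher and 2 were 2-fold lower in the library labelled day 30 than in that labelled day 5, beside 6.11% and 3.93% of all genes, and the median was log2 0.24. Igfbp3, a carrier of the growth factors, had 269.6, 744.0, 748.1 and 849.7 CPM. The carriers Igfbp5 and Igfbp6 had 1728, 358.0, 710.7 and 528.5 CPM and 1015, 576.4, 624.4 and 347.1 CPM. Igf1, the postnatal growth factor, had 1157, 980.6, 793.0 and 1235 CPM, and Igf2r, the receptor that clears Igf2, 103.3, 125.9, 102.1 and 140.7 CPM. Igf1 thus exceeded Igf2 in UMIs in each library, 1.72-fold in that labelled day 30.

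Genes of juvenile growth and of cell division were counted beside the members, and again nothing is read from the counts. Of 12 juvenile growth genes, 5 were measured in fibroblast-like cells and 4 were 2-fold higher in the library labelled day 30 than in that labelled day 5, beside 6.11% of all genes, namely the transcription factor Sox4 (5.48-fold), the growth factors Ptn (3.26-fold) and Mdk (2.95-fold) and the methyltransferase Ezh2 (2.06-fold). None of 12 cell division genes reached a mean of 10 CPM in these cells, and their sum was 22.2, 34.0, 12.8 and 194.4 CPM. The sum was 12.1, 164.4, 181.2 and 868.1 CPM in stromal-like cells, 13.9, 338.4, 27.1 and 177.8 CPM in endothelial-like cells and 9.03, 146.0, 36.5 and 215.8 CPM in follicular-like cells.

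The genes whose levels were most like the members' were ranked over classes and libraries. Over 50 sums of a class in a library with at least 100000 UMIs, and among 9263 genes, H19 was closest to Fbn1, Fbln1, Cpxm1, Clec3b and Osr1 (Pearson r 0.67 to 0.75), and the mean of the members to Fstl1, Htra1, Kdelr3, Bmp1 and Nectin3 (0.87 to 0.89). The sums share libraries and depth, and fibroblast-like cells hold the top of most of these genes, so the values are a description.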

How the data were processed

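Raw UMI counts were taken from the 4 deposited matrices, 1 per age. Per the labels and the study's methods the authors aligned the reads to mm10 with CellRanger (the matrix header names version 4) and counted UMIs, and the submitters' processing notes name Seurat 3.1.4 and 3.6.3. The authors' deposited table of cells supplied which barcodes were cells, and its counts were not used. The libraries held 54921806 to 89039113 UMIs in all droplets, which sets the precision of each count.

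Cells were kept with 200 to 10000 UMIs, at most 10% mitochondrial and at most 5% hemoglobin UMIs. The 6% of cells with the highest Scrublet score in each library were then left out as doublets, since the automatic threshold marked 0.0370% to 5.49%. Libraries were integrated with SCTransform in Seurat 5.3.0 on 2959 features, which excluded the 10 genes and every listed gene, and clustered at a resolution of 0.9. Clusters were named from marker lists by rules settled after the clusters were seen, and 1 cluster of 217 cells stayed unnamed. UMIs were summed per class and library, and sums of at least 20 cells were compared. A gene counted as measured at a mean of 10 CPM over libraries, and as higher or lower at 2-fold. Intervals are exact at 95%, Poisson for levels, conditional binomial for ratios and Clopper-Pearson for shares, and the code was tested on simulated counts. The floor for a count of 0 is 3 counts.

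The 10 genes and the gene lists were chosen with earlier results of these data known. Named beyond the 10 were at most 5 genes per list with the largest ratio past 2-fold in fibroblast-like cells, and the 5 genes most correlated with H19 and with the members' mean; Sgce, Kcnq1ot1, Igf1 and Igf2r were added after their values were seen. Alternatives covered the filters on cells, the classes, the denominator, free RNA, the filter on low levels and the limit; 2 further ones, without the cell with the most UMIs and without cluster 24, were chosen after seeing the data.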

Additional observations from a re-analysis of the deposited data

Results flagged for a closer look

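Between the libraries labelled day 30 and day 5, 2 members moved in opposite directions in fibroblast-like cells and in another class, with counting intervals on opposite sides of 0; each direction rests on 1 library per label, and the difference was not tested. Peg3 was higher in fibroblast-like cells (log2 2.94) and lower in C cell-like cells (log2 -1.53, interval -2.79 to -0.59), where it gave 68, 20, 4 and 9 UMIs in 29, 9, 2 and 5 cells (labels day 5, 10, 20 and 30) and its 71.2 CPM in the library labelled day 30 was 0.815 of free RNA. Meg3 was higher in fibroblast-like cells (log2 2.03) and lower in C cell-like cells (log2 -1.38, interval -1.92 to -0.89), but in the library labelled day 30 its 38 UMIs there came from 2 of 55 cells. Meg3 was also lower in T-like cells (log2 -0.86, interval -1.67 to -0.04), at 14.1, 16.5, 2.17 and 7.76 CPM, which was below free RNA in every library. There 11 of 26 Meg3 UMIs of the library labelled day 5 came from 1 cell, and without the highest cell of each library the levels of those labelled day 5 and 30 were 8.14 and 6.99 CPM. The median UMIs of a C cell-like cell were 3200, 1069, 1753 and 1528, and the part of depth in these directions was not tested. In the same comparison, 22.9% of 7333 genes were at least 2-fold lower in C cell-like cells and 13.6% higher. In T-like cells 12.3% of 7585 genes were at least 2-fold lower and 22.5% higher. The make-up of the T-like class also differed between libraries, as given above.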

How the results depend on the processing

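No paired analysis was possible because each age had 1 library and the groups share only the replicate number 1. For the library labelled day 30 over day 5 in fibroblast-like cells, 7 to 9 members were past the limit under all alternatives run, of 10 tested or, with a filter of 50 CPM, of 9. Counts moved by over 1.5 times in these cases, each with the share of all genes under the same setting in brackets. Without an upper limit of UMIs, 4 members instead of 1 were 2-fold higher for day 20 over day 5 in fibroblast-like cells (3.45%), and 5 instead of 2 in follicular-like cells of day 30 over day 5 (5.21%). The day 20 count was 2 with doublets kept (3.7%), 2 as a mean over cells (3.9%) and 0 at 3-fold (0.82%). The follicular-like count was 1 with at most 1% hemoglobin (4.29%), 4 with classes from each library by itself (6.57%), 1 when centred (4.07%), 5 without a filter (25.2%), 1 with a filter of 50 CPM (2.59%), 1 at 3-fold (1.42%) and 1 without the highest cell (4.2%). The endothelial-like count fell from 4 to 0 with a filter of 50 CPM, which left 2 members (2.38%), and the day 10 count in fibroblast-like cells from 5 to 3 at 3-fold (0.682%). H19 shares were 3.62% and 20.7% for day 5 and day 10 at 2000 UMIs, and 5.42%, 29.6%, 8.03% and 62.6% unthinned. Without a filter the share of all genes 2-fold higher for day 30 over day 5 was 23.7% against 6.11% in fibroblast-like, 14.9% against 3.83% in endothelial-like and 25.2% against 4.21% in follicular-like cells; in fibroblast-like cells it was 12.3% against 2.98% for day 10 over day 5, 12.6% against 3.82% for day 20 over day 5 and 14.1% against 5.12% for day 30 over day 20. The causes were not tested. None of the members' log2 ratios past 2-fold in fibroblast-like cells turned its sign under any alternative. Of 480 alternative log2 ratios there, 50 lay outside the counting interval of the main value. Some ratios short of 2-fold did turn their sign. For day 20 over day 5, H19 ran from -0.88 to 1.02, Igf2 from -0.18 to 1.04, Dlk1 from -0.22 to 0.22 and Plagl1 from -0.77 to 0.23. For day 10 over day 5, Ndn ran from -0.05 to 0.11. With 163 fibroblast-like and 55 C cell-like cells in the library labelled day 30, low members there were measured poorly.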
